A study of Mus musculus with 22 samples.

Results

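The NF-kB feedback neutrophils are the intestinal neutrophils with the highest summed level of 4 genes that NF-kB signalling is known to induce, Nfkbia, Nfkbiz, Tnfaip3 and Gadd45b. They were taken from a base of neutrophil-gated cells: barcodes with at least 500 transcripts, at least 5 of S100a8 plus S100a9, at most 2 of the 3 C1q chains (a macrophage product) and at most 1 of the granule genes Ngp, Ltf and Camp. Of 4224 barcodes, 1383 held at least 500 transcripts and 637 met the base rule. The 15% of base cells with the highest share of transcripts from the 4 genes were the members, 96 cells of 637, and the other 541 base cells are the cells they were compared with. The share was taken over named genes, that is genes whose names do not start with Gm, the prefix of unnamed mouse gene models.

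The cells came from an experiment on acute graft-versus-host disease (aGVHD), in which donor T cells attack the tissues of the recipient, the intestine among them. BALB/c recipients of 7 to 9 weeks were irradiated (2 doses, 5 Gy each) and then received 5000000 bone marrow cells from female C57BL/6 donors of 7 to 10 weeks. The aGVHD group also received 400000 donor T cells and the control group received none, so both groups were irradiated and transplanted. On day 21, cells positive for CD45, the donor marker H2kb, CD11b and Ly6G were sorted from a 4 cm segment of terminal ileum, after Peyer's patches were removed and the epithelium was stripped. Transcripts were counted by CEL-Seq2, a plate method that reads the 3′ end of each transcript with a molecular identifier, in 22 libraries of 192 barcodes (10 control, 12 aGVHD). The title of the series names lipocalin-2 (Lcn2) and immunoregulatory intestinal neutrophils. The labels do not say which mouse each library came from, and p-values therefore measure how far these libraries spread, which can be technical.

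NF-kB is a family of dimeric transcription factors, held inactive in the cytoplasm by IkB proteins until receptors for cytokines or microbial products lead to their degradation. It induces cytokines and chemokines, and it also induces its own inhibitors, which end the response. Nfkbia encodes IkB alpha, which binds NF-kB dimers and carries them out of the nucleus. Nfkbiz encodes the nuclear protein IkB zeta, which NF-kB needs at some secondary target genes. Tnfaip3 encodes A20, a ubiquitin-editing enzyme that acts below TNF and Toll-like receptors, and Gadd45b encodes a stress protein that restrains JNK signalling. In neutrophils, which live for a short time and respond quickly, this programme accompanies the release of chemokines and IL-1.

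The sequences upstream of 3 of the 4 genes that chose the cells are shown, since NF-kB feedback acts through sites near their starts, together with that of the chemokine gene Cxcl2, which the results below also turn on. They are the 250 bases before the annotated start, from RefSeq on GRCm38.p6, read 5′ to 3′ on the strand of the gene. Capitals mark matches to the kappaB consensus on either strand, including matches that overlap each other.
Nfkbia (chr12:55492648-55492897, minus strand): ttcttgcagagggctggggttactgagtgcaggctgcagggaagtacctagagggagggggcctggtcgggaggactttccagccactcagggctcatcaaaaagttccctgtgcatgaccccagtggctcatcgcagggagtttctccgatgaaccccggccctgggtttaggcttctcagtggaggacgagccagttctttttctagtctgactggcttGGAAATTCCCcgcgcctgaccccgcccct
Tnfaip3 (chr10:19015411-19015660, minus strand): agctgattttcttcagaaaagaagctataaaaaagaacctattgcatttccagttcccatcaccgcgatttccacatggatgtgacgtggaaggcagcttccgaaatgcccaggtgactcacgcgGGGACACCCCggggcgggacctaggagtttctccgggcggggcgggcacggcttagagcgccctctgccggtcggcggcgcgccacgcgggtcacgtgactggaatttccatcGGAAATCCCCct
Gadd45b (chr10:80929841-80930090, plus strand): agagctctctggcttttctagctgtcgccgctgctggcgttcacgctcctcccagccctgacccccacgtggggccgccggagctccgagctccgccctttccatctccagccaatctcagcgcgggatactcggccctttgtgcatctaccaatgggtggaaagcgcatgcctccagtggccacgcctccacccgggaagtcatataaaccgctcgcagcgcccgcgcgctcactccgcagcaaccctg
Cxcl2 (chr5:90903649-90903898, plus strand): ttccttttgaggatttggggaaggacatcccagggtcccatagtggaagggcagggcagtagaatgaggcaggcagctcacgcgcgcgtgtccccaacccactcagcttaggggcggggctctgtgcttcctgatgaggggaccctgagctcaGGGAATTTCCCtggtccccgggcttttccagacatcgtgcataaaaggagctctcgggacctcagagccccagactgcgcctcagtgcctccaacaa
Nfkbia held 1 match, whose first base lies 29 bases before the start. Tnfaip3 held 2 matches, 125 and 12 bases before the start, in one of its 2 annotated windows and none in the other. Cxcl2 held 2 overlapping matches, 97 and 96 bases before the start. Gadd45b held no match in this window. A match is a description of letters and was not tested for binding.

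The 96 members held 11 to 148 transcripts of the 4 genes each, with a median of 42. The 4 genes made up a median of 3.06% of a member's named transcripts (highest 5.93%), against a median of 0.702% in the other base cells. Nfkbia gave 66.0% of the members' transcripts of the 4 genes and over 50% of them in 82 of 96 members, so the rule chose mainly on Nfkbia. In the pooled members Nfkbia stood at 20847 transcripts per 1000000 named transcripts (CPM) against 4904 in the other base cells. Nfkbiz stood at 3850 against 1083 CPM, Tnfaip3 at 2997 against 692 CPM and Gadd45b at 3891 against 949 CPM. These values chose the cells and are given as a description.

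All 4 genes were detected together in 77 of 96 members, 3 of them in 13 members and 2 in 6 members. The same 4 were detected together in 146 of 541 other base cells. The edge of the class is a cut through a range and not a gap. The lowest member was a cell of aGVHD library 3 at 2.28% (34 of 1489 named transcripts), and the highest cell outside was one of aGVHD library 7 at 2.27% (60 of 2644). Within 0.25 percentage points of the cut lay 26 members and 23 other cells. In barcodes under 500 transcripts the 4 genes took 0.137% to 0.567% of named transcripts, by library.

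The members carried neutrophil markers, some near the level of the other base cells and some lower. Csf3r, the receptor for G-CSF, was detected in 82 of 96 members and stood at 2123 CPM against 2018 CPM in the other base cells. Cxcr2, the receptor for neutrophil chemokines, stood at 949 against 1098 CPM, and the decoy receptor gene Il1r2 at 3044 against 3096 CPM. Lower in members were S100a8 and S100a9, the calprotectin genes that the base rule used, at 5802 against 9046 CPM and 10007 against 13122 CPM, and Retnlg, a gene of mature neutrophils, at 1522 against 2308 CPM. S100a9 was detected in every member. Over the 28 mature neutrophil genes of a list, the summed level was 41783 CPM in members and 38036 CPM in the other base cells. The label as neutrophils therefore matched their markers, and "NF-kB feedback" describes a level of 4 genes and not a separate type.

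Epithelial markers were lower in the members, while B and plasma cell markers went both ways. Of the epithelial list, 14 of 15 genes were in the tables; their sum over 13 libraries ranged from 147 to 2622 CPM in members and from 489 to 64388 CPM in the other base cells, and 5 of the genes had no transcript in members. Members held 1 transcript of Krt8, a keratin, against 414 in the other base cells. The B and plasma cell list ranged from 0 to 4104 CPM in members and from 37.9 to 1329 CPM in the other base cells of those libraries, with 1 of 11 genes at 0 in members. Cd79a, a B cell receptor chain, stood at 34.1 CPM in members (5 transcripts, all in 1 cell) against 9.62 CPM. Of the T and NK cell list, 10 of 12 genes had no transcript in members, where 3 transcripts would be 20.5 CPM. A total of 12 of 96 members (12.5%) and 123 of 541 other base cells (22.7%) held at least 10 transcripts of the epithelial, B and plasma, dendritic or T and NK lists, and these are called marker-rich cells below. One such cell outside the members held 85.0% of the 8765 B and plasma transcripts there, and another held 35.2% of the 8073 epithelial transcripts. No doublet caller was run.

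The members and the other cells had close depths. The median was 1476 named transcripts per member and 1457 per other base cell, and 2235 against 2478 transcripts in all. By library, over the 13 libraries with at least 3 cells of each kind, median named transcripts ran from 916 to 2078 in members and from 1030 to 1933 in the other cells, and the difference was 37.4 (exact sign-flip permutation test, two-sided, p = 0.668, adjusted over 3 depth measures 0.987). Pooled over cells, mitochondrial transcripts took 6.46% of named transcripts in members and 11.2% in the other base cells. Outside the marker-rich cells these shares were 6.59% and 7.13%, and within them 5.94% and 16.2%. The libraries held 2 to 66 base cells and 0 to 17 members each. All 22 libraries used the same 192 barcode names, and no 2 barcodes had identical values.

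How each of the 4 genes stood in cells chosen without it was described by leaving out each gene in turn. The top 15% of base cells was chosen again by the other 3 genes, and the gene left out was compared between those cells and the rest, per library. The 4 genes were picked together with earlier results of these data known, and most of the cells chosen were members, so the values are a description with no test. All 4 left-out genes were higher in the chosen cells. Tnfaip3 ranged from 757 to 4258 CPM (median 2414) in cells chosen by the other 3 genes and stood at a median of 874 CPM (highest 1298) in the rest. The 2 ranges overlapped, but Tnfaip3 was higher in the chosen cells in 14 of 14 libraries. The log2 difference was 1.65, and with both sums thinned to the same depth it was 1.87.

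Gadd45b, left out in the same way, ranged from 1714 to 5550 CPM (median 3538) in the chosen cells and from 346 to 1881 CPM (median 1155) in the rest. It was higher in 14 of 14 libraries. The log2 difference was 1.67, and at equal depth it was 1.58. Nfkbia ranged from 9840 to 21886 CPM (median 16545) against 2550 to 9536 CPM (median 6167). The 2 ranges of Nfkbia did not overlap, in 12 libraries. Its log2 difference was 1.50, and at equal depth it was 1.46. Nfkbiz ranged from 899 to 5130 CPM (median 3677) against 471 to 2276 CPM (median 1046) and was higher in 11 of 12 libraries. Its log2 difference was 1.49, and at equal depth it was 1.44. Of 96 cells chosen without Nfkbia, 65 were among the members, against 88, 88 and 86 for cells chosen without Nfkbiz, Tnfaip3 and Gadd45b. With the dated title set alone, Nfkbia differed by 1.08 at the unthinned depth.

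**Figure D1:**
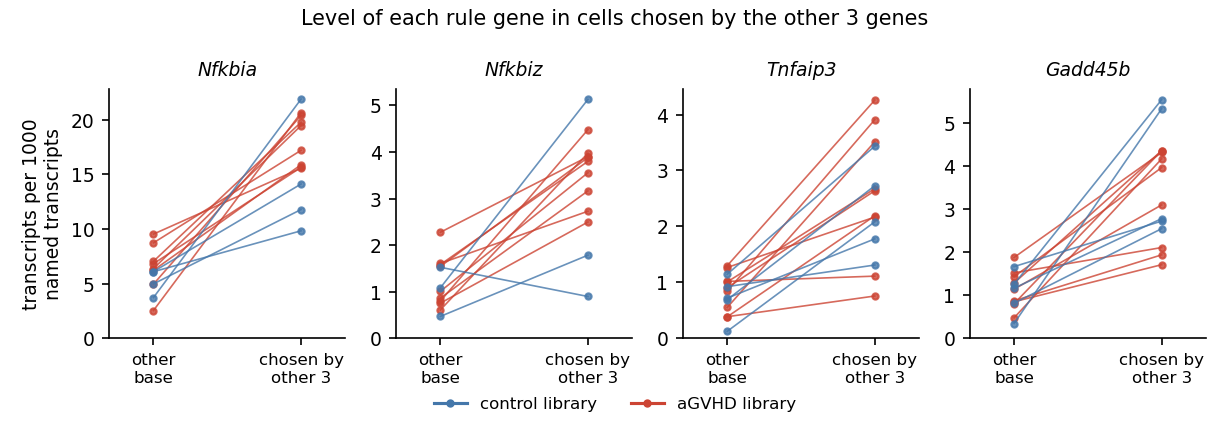
Level of each rule gene per library (transcripts per 1000 named transcripts, linear axes from 0, each gene on its own scale) in the other base cells and in cells chosen by the other 3 genes. Each line joins the 2 values of a library, control libraries in blue and aGVHD libraries in red, and the lines rise in 14 of 14 libraries for Tnfaip3 and Gadd45b, in 12 of 12 for Nfkbia and in 11 of 12 for Nfkbiz.

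The first comparison the design implies is whether the members made up a different part of the neutrophils in aGVHD. Over libraries with at least 5 base cells, the share of base cells that were members was 17.2% ± 11.2 (SD, n = 12) in aGVHD and 15.1% ± 11.2 (SD, n = 7) in control. The aGVHD libraries ranged from 1.52% to 29.6% (median 19.8%), and the control libraries from 0% to 28.6% (median 17.6%). The 2 groups overlapped over nearly their whole range. The difference of 2.03 percentage points was smaller than the spread between libraries (exact permutation test within title sets, two-sided, 19305 permutations, p = 0.692). Without control library 6, which had no member, the difference was -0.499 points.

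The library titles fall into a dated set and a G1 set. In the dated set, members made up 1.52% to 29.6% of base cells (median 17.2%, n = 8) in aGVHD and 0% to 27.3% (median 8.70%, n = 5) in control, and the means differed by 2.94 points (exact permutation p = 0.664). In the G1 set they made up 8.16%, 23.1%, 26.3% and 29.3% of base cells in the 4 aGVHD libraries and 17.6% and 28.6% in the 2 control libraries, and the means differed by -1.39 points, in the other direction (exact permutation p = 0.933). With 15 permutations, the test in the G1 set could not give a p under 0.05. The aGVHD libraries 6, 8 and 11 held 1 member each among 47, 66 and 54 base cells. Pooled over cells, 79 of 513 aGVHD base cells (15.4%) and 17 of 124 control base cells (13.7%) were members, with exact binomial 95% intervals of 12.4% to 18.8% and 8.19% to 21.0% that cover counting error alone.

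**Figure D2:**
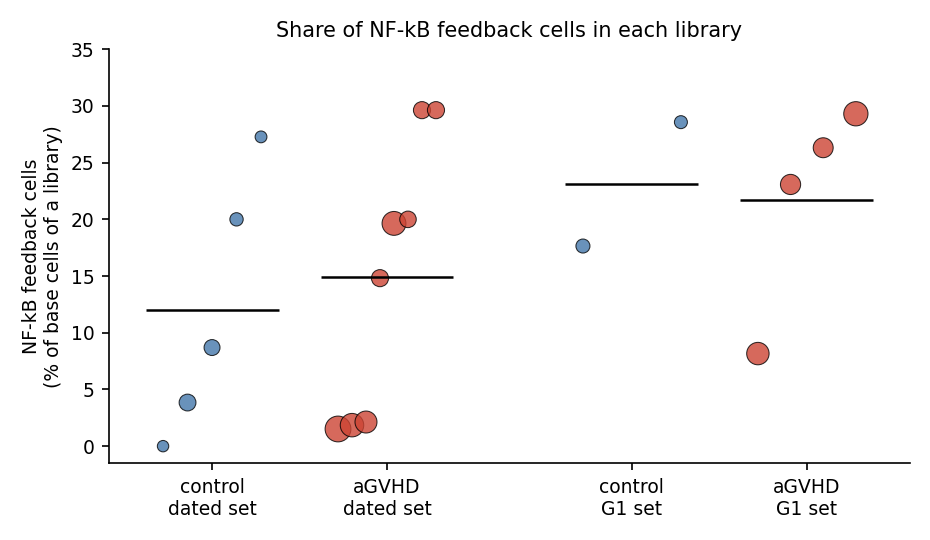
Members as a percent of base cells in each library with at least 5 base cells, by group and title set; 1 point is 1 library, its area grows with the number of base cells, and the black line is the mean of the libraries. Control libraries lie between 0% and 28.6% and aGVHD libraries between 1.52% and 29.6%, and the 2 groups overlap.

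The members were then compared with the other base cells of the same library, leaving the 4 rule genes out of the totals and the table. Transcripts were summed per library and cell status in the 13 libraries with at least 3 cells of each kind (4 control, 9 aGVHD; 89 members, 314 other cells). At the fixed offset of 0.5 transcripts, limma called 609 of 3369 genes (18.1%), of which 89.8% were higher in members. The member sums were shallower (median 6613 against 38712 transcripts), and a fixed offset raises low genes in shallower sums, as simulated sums with known answers showed. With trimmed-mean scaling 255 genes were called and 10.2% of them were higher, the median of all genes moving from 0.52 to -0.13. Left out one at a time, control libraries 1, 4 and 7 brought the count of 609 to 321, 298 and 366, and aGVHD libraries 1, 10 and 12 to 274, 397 and 387. So the 2 sums of each library were also thinned to the same depth (3353 to 26201 transcripts), where 106 of 1326 genes were called (7.99%): 54 higher (4.07%) and 52 lower (3.92%), the median of all genes being 0.02. There, trimmed-mean scaling called 107 genes, 36 of them higher, with a median of -0.08.

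Both fits called 96 genes in the same direction, 53 higher and 43 lower in members. "Rose" and "fell" below are used of these genes, and the log2 differences and p-values are those at equal depth. Without the marker-rich cells, equal sums of 11 libraries gave 26 calls of 1047 genes (2.48%), 20 higher and 6 lower. A further fit left out cells with a total above 4 times the median of their library or with over 2% of transcripts from Kcnq1ot1, a nuclear noncoding RNA, and chose the top 15% again. Without these cells of very high total or high Kcnq1ot1, equal sums gave 52 calls of 1303 genes (3.99%), and 29 of the 53 higher and 14 of the 43 lower genes were called. In the fit without marker-rich cells all 53 of the higher genes had a positive difference and 20 were called. Of the 43 lower genes 34 could be tested, 33 had a negative difference and 0 were called with limma, while 124 of the 1047 genes had an unadjusted p under 0.05. Levels are in CPM of named genes without the 4 rule genes, and each transcript is counted once at its 3′ end.

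Cytokine and chemokine genes had the highest median of the gene lists compared. A list of NF-kB induced cytokines, chemokines and related products held 28 genes, of which 17 could be tested. Of these, 11 were higher and 1 was lower, against 4.07% and 3.92% of all genes. The lower gene was Vegfa, an angiogenic factor, lower at equal depth alone. The list's median log2 difference was 1.18, against 0.02 over all genes. Tnf, the cytokine that itself activates NF-kB, ranged from 814 to 7463 CPM (median 1717) in members and from 31.4 to 1812 CPM (median 539) in the other base cells. It was higher in members in 13 of 13 libraries, though the 2 ranges overlapped. The log2 difference was 1.92 (SE 0.29, limma adjusted p = 1.34e-06), a 3.78-fold difference. The 89 members held 437 Tnf transcripts, more than the 431 of the 314 other cells. Without the marker-rich cells it was 1.71 (limma adjusted p = 9.03e-06).

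Il23a, the p19 subunit of IL-23, a cytokine that drives IL-17 responses, was scarce outside the members. It ranged from 151 to 2083 CPM (median 611) in members and from 0 to 395 CPM (median 62.9) in the other base cells. It was higher in 12 of 13 libraries, aGVHD library 5 being the exception with 1 transcript in members. The log2 difference was 2.29 (SE 0.34, limma adjusted p = 1.34e-06). The counts behind it were low, 103 transcripts in members and 76 in the other cells.

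Cxcl2, a chemokine that attracts neutrophils through Cxcr2, ranged from 5913 to 37578 CPM (median 25948) in members and from 2893 to 21662 CPM (median 10882) in the other base cells. It was higher in 13 of 13 libraries, with a log2 difference of 1.18 (SE 0.17, limma adjusted p = 1.34e-06). Il1b, the precursor of IL-1 beta, ranged from 12970 to 29851 CPM (median 22331) against 5342 to 20696 CPM (median 8536). It too was higher in 13 of 13 libraries, by 1.04 (SE 0.16, limma adjusted p = 3.86e-06). Both were abundant in the other base cells as well, so the difference is one of level. Il1a, its relative that is active without cleavage, had medians of 1595 and 407 CPM and rose by 1.55 (limma adjusted p = 0.000252). Il1rn, which encodes the antagonist of the IL-1 receptor, had medians of 3341 and 1303 CPM and rose by 1.26 (limma adjusted p = 0.000243). The agonists and their antagonist thus rose together.

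Ptgs2, the inducible cyclooxygenase of prostaglandin synthesis, ranged from 2286 to 6561 CPM (median 4480) in members and from 346 to 2842 CPM (median 1404) in the other cells, and was higher in 13 of 13 libraries. It rose by 1.17 on the log2 scale (SE 0.24, limma adjusted p = 0.000335). Ccl3, a chemokine for monocytes and T cells, had medians of 3326 and 1110 CPM and rose by 1.29 (limma adjusted p = 0.000152), with 2 libraries in the other direction. Icam1, an adhesion molecule, had medians of 1670 and 446 CPM and rose by 1.98 (SE 0.31, limma adjusted p = 2.98e-06), with control library 1, at 0 transcripts in members, as the one exception. Cxcl1, another chemokine for neutrophils, had medians of 234 and 82.2 CPM, was higher in 7 libraries and lower in 3, and rose by 1.58 (limma adjusted p = 0.00781). The Cxcl1 call was lost without aGVHD library 2 (1.07, adjusted p = 0.107) or 4 (1.22, adjusted p = 0.0501), and without the marker-rich cells (1.46, adjusted p = 0.0674).

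Per cell, cytokine and chemokine transcripts of the list made up a median of 6.99% of named transcripts in members (0.828% to 14.6%) and 2.82% in the other base cells (0.201% to 12.5%), both without the 4 rule genes. Of 96 members, 91 lay above the median of the other cells. The list of NF-kB feedback inhibitors and regulators took 3.04% against 1.88%, with 84 of 96 members above. The list of receptors upstream of NF-kB took 1.65% against 1.40%, with 61 of 96 above. Mature neutrophil genes took 4.34% against 4.27%, with 51 of 96 above. The ranges of members and other cells overlapped for every one of these 4 lists.

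**Figure D3:**
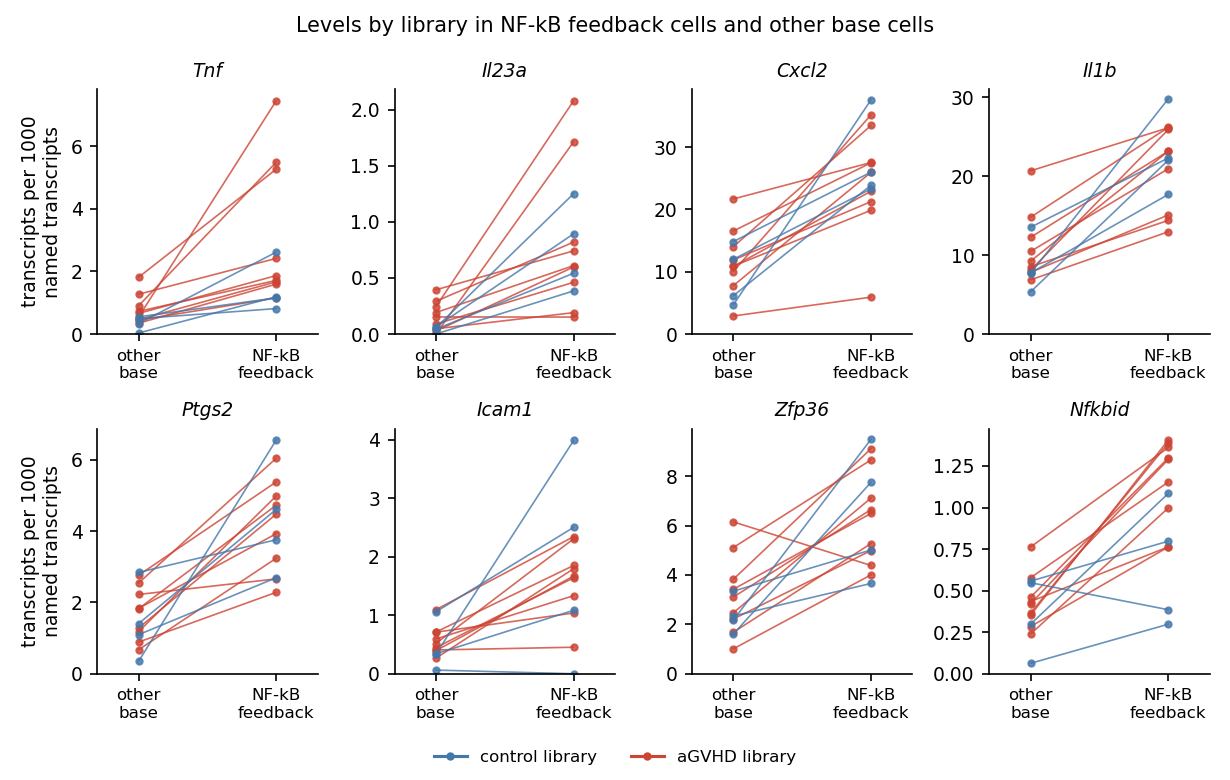
Level of 8 genes per library (transcripts per 1000 named transcripts without the rule genes, linear axes from 0, each gene on its own scale) in the other base cells and in members, lines joining the 2 values of a library, control in blue and aGVHD in red. Tnf, Cxcl2, Il1b and Ptgs2 are higher in members in 13 of 13 libraries, and Il23a, Icam1, Zfp36 and Nfkbid in 12 of 13.

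The list of NF-kB feedback inhibitors and regulators held 30 other genes. Some of them are described below by their part in other pathways, such as Socs3, Dusp1 and Dusp2. Of the 30 genes, 19 could be tested, 9 were higher (against 4.07% of all genes) and 0 were lower. The median was 0.72, and 18 of the 19 had a positive difference, against 51.6% of all genes. The 9 became 3 of 18 without the marker-rich cells, where 1.91% of all genes were higher. They became 4 of 19 without the cells of very high total or high Kcnq1ot1, where 2.38% were. Nfkbid, which encodes the nuclear IkB-like protein IkB NS, ranged from 298 to 1406 CPM (median 1085) in members and from 62.9 to 763 CPM (median 421) in the other cells. It was higher in 12 of 13 libraries, with control library 7 as the exception, and rose by 1.62 (SE 0.30, limma adjusted p = 0.0001). Without the cells of very high total or high Kcnq1ot1 its difference was 0.76 (limma adjusted p = 0.0926). Nfkbie and Nfkbib, which encode 2 further cytoplasmic IkB proteins, had positive differences of 0.93 (limma adjusted p = 0.0809) and 0.72 (limma adjusted p = 0.251) that did not pass the test at equal depth. Nfkbie passed it when aGVHD library 1, 2, 3, 7, 9 or 12 was left out, with differences of 1.08 to 1.22 (limma adjusted p from 0.0179 to 0.0489). The low counts of Nfkbib, 29 transcripts in members, limit what could be seen.

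Ier3, an immediate early gene linked to survival, had medians of 2088 and 743 CPM and rose by 1.05 (limma adjusted p = 0.00663). Pim1, a kinase of cytokine signalling, had medians of 10736 and 6043 CPM and rose by 0.72 (limma adjusted p = 0.00833). Its difference was 0.43 without the marker-rich cells (limma adjusted p = 0.102).

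Socs3, an inhibitor of JAK and STAT signalling, had medians of 1154 and 526 CPM and rose by 1.02 (limma adjusted p = 0.0153). The Socs3 call was lost without control library 8 (adjusted p = 0.0564). Socs3 was higher in members in 9 of 9 aGVHD libraries and in 1 of 4 control libraries, where the medians were 232 and 230 CPM. The difference of its contrast between groups was 0.15 (limma adjusted p = 0.949). Tnfaip2, a TNF-induced gene, had medians of 4071 and 2784 CPM and rose by 0.75 (limma adjusted p = 0.0139), a call lost without aGVHD library 2 (adjusted p = 0.0552) or 4 (adjusted p = 0.0767). Birc3, which encodes the ubiquitin ligase cIAP2 below TNF receptors, had medians of 963 and 438 CPM and rose by 0.94 (limma adjusted p = 0.0364). The Birc3 call was lost without control library 1, 4, 7 or 8 or aGVHD library 1, with adjusted p from 0.0533 to 0.138. The calls of Tnf, Il23a, Cxcl2, Il1b, Nfkbid, Ier3 and Pim1 held in each of the 13 fits that left out 1 library. Ier5, a serum-inducible early gene, had medians of 996 and 669 CPM and rose by 1.09 (limma adjusted p = 0.0123), a call lost without control library 8 (adjusted p = 0.054) or aGVHD library 12 (adjusted p = 0.0539). The MAP kinase phosphatase genes Dusp1 and Dusp2 rose by 0.86 (limma adjusted p = 0.0112) and 1.06 (limma adjusted p = 0.0275). The Dusp1 call was lost without control library 1 or 4 or aGVHD library 7, and the Dusp2 call without control library 1 or 8 or aGVHD library 9 or 10, with adjusted p from 0.0538 to 0.186.

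Several of these regulator calls were also lost when cells were left out. Without the marker-rich cells the differences were 0.85 for Socs3 (limma adjusted p = 0.106), 0.52 for Tnfaip2 (0.179), 0.59 for Birc3 (0.435), 0.76 for Ier5 (0.180) and 0.43 for Dusp1 (0.349). Without the cells of very high total or high Kcnq1ot1 they were 0.81 for Ier3 (limma adjusted p = 0.0532), 0.87 for Socs3 (0.0701), 0.55 for Tnfaip2 (0.0503), 0.57 for Ier5 (0.272) and 0.79 for Dusp2 (0.257).

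The NF-kB subunits themselves were scarce. Of the 5 subunit genes 2 could be tested at equal depth and neither passed there, while at the fixed offset 2 of 5 were called higher, where 16.2% of all genes were. Nfkb2, the p100 precursor, had medians of 302 and 119 CPM and a difference of 0.72 (limma adjusted p = 0.225), against 1.16 at the fixed offset, where it was called (limma adjusted p = 0.0117). Rel, the c-Rel subunit, had medians of 271 and 176 CPM and a difference of 0.48 (limma adjusted p = 0.462), which ran from 0.01 without aGVHD library 1 to 0.93 without aGVHD library 7. Relb, with 17 transcripts in members, was not tested at equal depth and was called at the fixed offset (1.96, limma adjusted p = 0.00036). Nfkb1 and Rela, with 8 and 9 transcripts in members, had differences of 0.21 and -0.07 there (limma adjusted p = 0.709 and 0.907).

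Of 27 receptors upstream of NF-kB, 13 could be tested and 1 was called (against 4.07% of all genes called higher). All 13 had a positive difference, against 51.6% of all genes, and the median was 0.41. Without the marker-rich cells 8 of 11 had a positive difference (against 47.4% of all genes) and 1 was called (against 1.91% called higher). The called gene was Clec4e, which encodes Mincle, a receptor for glycolipids of microbes and damaged cells. It ranged from 1540 to 5670 CPM (median 3646) in members and from 346 to 2373 CPM (median 1728) in the other cells, and was higher in 12 of 13 libraries. It rose by 1.03 (SE 0.24, limma adjusted p = 0.0018). Outside this list, Ccrl2, a non-signalling receptor that presents chemerin, had medians of 6036 and 2326 CPM and rose by 1.28 (limma adjusted p = 9.6e-05).

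Of 35 AP-1 and immediate early genes, 25 could be tested, with a median of 0.48. Of these, 5 were higher and 1 was lower, against 4.07% and 3.92% of all genes. The 5 became 3 of 24 without the marker-rich cells, where 1.91% of all genes were higher. They became 3 of 26 without the cells of very high total or high Kcnq1ot1, where 2.38% were. Zfp36 encodes tristetraprolin, which binds AU-rich elements and leads to decay of cytokine mRNAs. It ranged from 3658 to 9498 CPM (median 6496) in members and from 1007 to 6153 CPM (median 2468) in the other cells, and was higher in 12 of 13 libraries. It rose by 1.15 (SE 0.22, limma adjusted p = 0.000143). Ppp1r15a, which encodes GADD34, a phosphatase subunit that restores translation after stress, had medians of 2099 and 800 CPM and rose by 1.17 (limma adjusted p = 0.00304). Maff, a small Maf transcription factor, ranged from 298 to 1139 CPM (median 543) in members and from 31.4 to 383 CPM (median 200) in the other cells, and was higher in 13 of 13 libraries. It rose by 1.72 (SE 0.35, limma adjusted p = 0.000331). Without aGVHD library 1 its difference was 1.04 (limma adjusted p = 0.0517), and without the marker-rich cells 1.08 (limma adjusted p = 0.0923).

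Of 18 immunoregulatory genes 11 could be tested, with a median of 0.41. Of these, 4 were higher and 0 were lower, against 4.07% and 3.92% of all genes. The 4 became 2 of 10 without the marker-rich cells, where 1.91% of all genes were higher. The 4 were Il1rn, Ptgs2, Socs3 and Cd274, of which the first 3 are described above. Cd274, which encodes the inhibitory ligand PD-L1, had medians of 1794 and 857 CPM and rose by 0.94 (limma adjusted p = 0.026). Its call was lost without aGVHD library 4 (0.72, adjusted p = 0.137) or control library 8 (0.88, adjusted p = 0.0513), and without the marker-rich cells (0.63, adjusted p = 0.289). Irg1, which is on none of the lists, encodes the enzyme that makes itaconate, a metabolite that restrains inflammation. It ranged from 2987 to 9835 CPM (median 7795) in members and from 1194 to 5403 CPM (median 3022) in the other cells, was higher in 12 of 13 libraries and rose by 1.25 (SE 0.22, limma adjusted p = 5.25e-05).

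Lcn2, the gene in the title of the series, ranged from 0 to 2395 CPM (median 289) in members and from 36.5 to 2748 CPM (median 362) in the other base cells. It was higher in members in 4 of 13 libraries and lower in 9, and the difference of -0.44 (SE 0.32) did not pass the test (limma adjusted p = 0.476). Without aGVHD library 1 it was -0.69 and without aGVHD library 7 it was -0.01. The 2 ranges overlapped over nearly their whole length. Granule genes had 0 calls among 10 tested, where 7.99% of all genes were called. Glycolysis and hypoxia genes had 0 calls among 11, with a median of -0.25. Of the 11, 1 had a positive difference, against 51.6% of all genes. Of 7 heat shock genes 0 were higher and 2 were lower, with a median of -0.15, where 3.92% of all genes were lower. The 2 became 0 of 4 without the marker-rich cells, and 0 of 6 without the cells of very high total or high Kcnq1ot1. Interferon response genes had 1 higher call among 28 tested, with a median of 0.34. Mature neutrophil genes had 1 among 25, with a median of 0.22. Both shares were near the 4.07% of all genes that were higher. Without the marker-rich cells the medians were -0.087 and -0.090, with 12 of 28 and 8 of 25 positive, where 47.4% of all genes were. There, 0 interferon response genes were called, and 1 mature neutrophil gene was lower. Of 13 neutrophil markers 1 was higher and 3 were lower in that fit. Of 9 S100 alarmin and protease inhibitor genes 2 were lower, where 0.573% of all genes were lower.

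**Figure D4:**
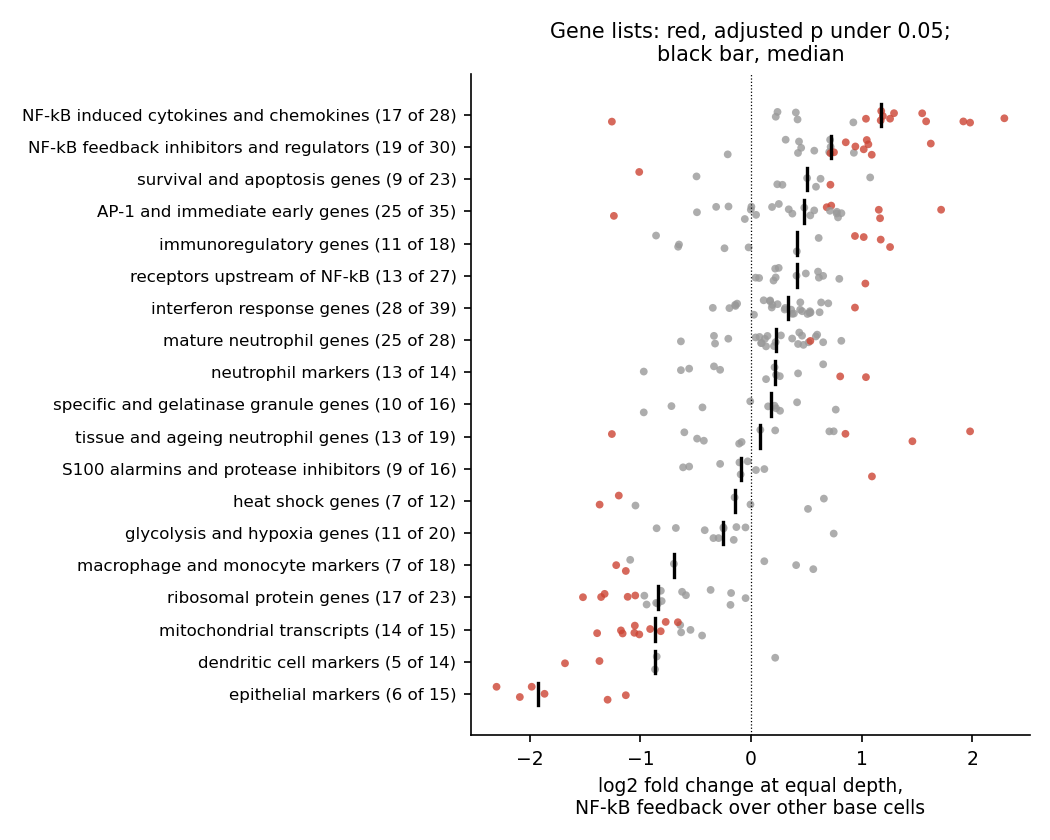
Log2 difference between members and other base cells at equal depth, 1 point per gene tested, for each list with at least 5 genes tested (genes tested of genes listed in brackets); red points passed adjusted p 0.05, grey ones did not, and the black bar is the list's median. The median of the cytokine and chemokine list stands at 1.18 and that of the regulator list at 0.72, while that of the epithelial list stands at -1.92.

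The genes that fell in members were mostly ribosomal, mitochondrial, epithelial or antigen-presentation genes. Of the 43, 21 were ribosomal protein genes and 10 were mitochondrial transcripts. These are differences between sums of cells, and the typical cell differed less. Per cell, the mitochondrial list took a median of 5.81% of named transcripts in members and 6.00% in the other base cells. Of 96 members, 43 lay above the median of the other cells. The ribosomal list took 0.661% against 0.724%, with 38 of 96 members above. Of the epithelial list all 6 genes tested were lower (against 3.92% of all genes), with a median of -1.92. Reg3b, an antimicrobial lectin of enterocytes and Paneth cells, ranged from 0 to 596 CPM (median 38.2) in members. In the other cells it ranged from 0 to 31658 CPM (median 122), with a log2 difference of -2.30 (limma adjusted p = 5.25e-05). It was lower in members in 7 of 13 libraries, equal in 5 and higher in 1. Its medians in members and other cells were 271 and 6107 CPM in control libraries, and 38.2 and 36.5 CPM in aGVHD libraries. Pigr, which carries IgA across the epithelium, had 8 transcripts in members against 483 and a difference of -2.16 (limma adjusted p = 9.6e-05). Reg3g and Krt8 had differences of -2.09 (limma adjusted p = 0.000335) and -1.87 (limma adjusted p = 0.00127). Reg3g was lower in members in 8 libraries and equal in 5, and Krt8 was lower in 9 and equal in 4. H2-Ab1 and H2-Eb1, which encode MHC class II chains, had differences of -1.68 (limma adjusted p = 0.000379) and -1.37 (limma adjusted p = 0.00304), and mt-Co3, a mitochondrial subunit of cytochrome oxidase, one of -1.16 (limma adjusted p = 0.0012). The marker-rich cells made up 22.7% of other cells and 12.5% of members. They are defined in part by the epithelial and dendritic lists, so a fit without them is no test of the genes on those lists. Among these are Reg3b, Reg3g, Krt8, H2-Ab1, H2-Eb1 and Lyz1, which is described below. Reg3b, Reg3g, Krt8 and Pigr could not be tested in it. Of the 34 lower genes that could be tested, 0 were called. Without the cells of very high total or high Kcnq1ot1 the differences were -0.018 for Reg3b (limma adjusted p = 0.993), -1.10 for Pigr (0.146) and -0.60 for mt-Co3 (0.122). H2-Ab1 and H2-Eb1 stayed called there, at -1.56 (limma adjusted p = 0.00182) and -1.48 (0.00185).

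Among the other lower genes, Hsp90ab1, a chaperone, differed by -1.20 (limma adjusted p = 0.0154). Its call was lost without aGVHD library 2 or 4 or control library 7 (adjusted p from 0.0503 to 0.0579). Cdkn1a, which encodes the cell cycle inhibitor p21, had medians of 399 and 977 CPM and differed by -1.01 (limma adjusted p = 0.0237), a call lost without control library 4 or 8 or aGVHD library 2, 5 or 9 (adjusted p from 0.0564 to 0.165). Ly6c2, a monocyte marker, had 17 transcripts in members and differed by -1.22 (limma adjusted p = 0.0262), a call lost without aGVHD library 9 or control library 8 (adjusted p = 0.0774 and 0.0564). Lyz1, a lysozyme of Paneth and myeloid cells, differed by -1.13 (limma adjusted p = 0.00823), a call lost without aGVHD library 4 (adjusted p = 0.0595). Without the marker-rich cells these 4 had differences of -0.62, -0.72, -1.13 and -0.35, none of them called. Lyz1 is on the epithelial list, which helps define the marker-rich cells, so that fit is no test of Lyz1. In the fit without cells of very high total or high Kcnq1ot1, the Hsp90ab1 call was lost (-1.08, limma adjusted p = 0.0574). There, Cdkn1a (-1.17, limma adjusted p = 0.00653), Ly6c2 (-1.41, 0.00954) and Lyz1 (-1.18, 0.00322) stayed called.

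The upstream windows of the genes that rose were searched for the kappaB consensus. Of the 53 genes 45 had a window in RefSeq, and 8 of them (17.8%) held a match in the 250 bases before an annotated start: Cxcl2, Ccrl2, Csf1, Cxcl1, Maff, Nfkbid, Nlrp3 and Ier3. The share was 8.31% of the 999 genes tested at equal depth that had a window, 4.76% of the 21 genes that fell and had one, and 4.46% of all 27025 genes with a window. The AP-1 motif TGANTCA, searched on both strands, was held by 4.44% of the 45, by 6.81% of the genes tested and by 7.82% of all genes with a window. Several genes have more than 1 window, which raises the share per gene. Tnf, Il1b and Icam1, which rose with some of the smallest p, held no match in these windows, which says nothing of sites elsewhere.

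Base cells were also ordered by their share of the 4 genes and divided into 10 bins of 63 or 64 cells, each pooled over libraries, as a description without a test. Tnf went from 102 CPM in the lowest bin to 3592 CPM in the highest, and Cxcl2 from 5672 to 29677 CPM. Il1b went from 6015 to 22048 CPM, Icam1 from 102 to 1939 CPM and Nfkbid from 139 to 1017 CPM. Il23a went from 21.9 CPM (3 transcripts) to 879 CPM. Mitochondrial transcripts went the other way, from 188438 to 68889 CPM. The bins hold cells of different libraries in different proportions.

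**Figure D5:**
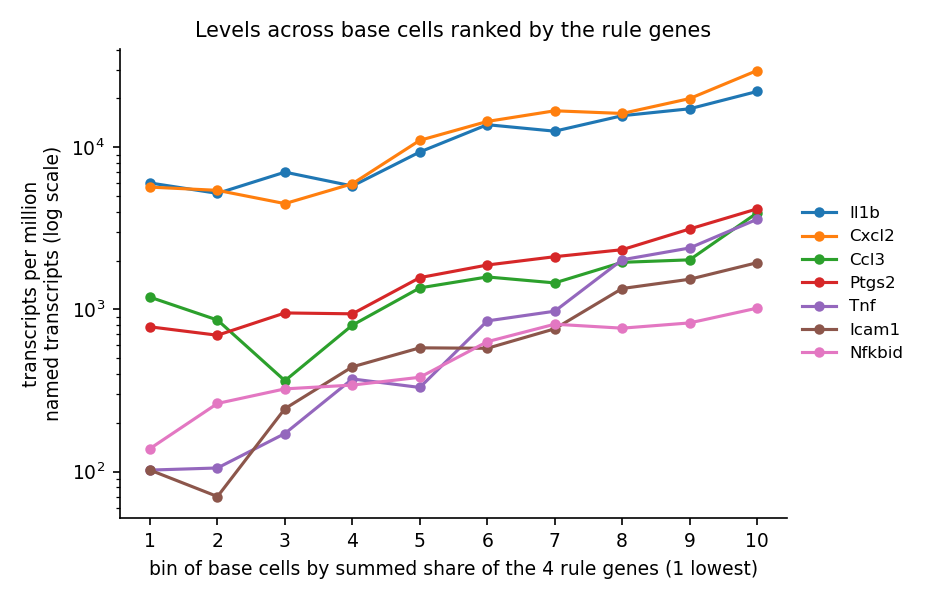
Level of 7 genes (CPM, log axis) in 10 bins of base cells ordered by their share of the 4 rule genes, 63 or 64 cells each and pooled over libraries. Tnf goes from 102 to 3592 CPM and Cxcl2 from 5672 to 29677 CPM between the lowest and the highest bin, while Ccl3 is lower in the third bin than in the first.

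The groups were then compared. Levels in this paragraph and the next are in CPM of all named genes, with the 4 rule genes counted in the totals. Member sums of 4 control and 9 aGVHD libraries were fitted with the title set as a covariate, and limma called 0 of 651 genes (0.0%), with 60 at an unadjusted p under 0.05. Fits with a mean-variance trend in place of weights and with an offset in proportion to depth called 3 genes each. Lcn2 ranged from 112 to 2304 CPM (median 341) in aGVHD members and from 0 to 187 CPM (median 55.2) in control members. The 2 ranges overlapped, and the log2 difference of 1.76 (SE 0.67) did not pass the test (limma adjusted p = 0.314). With 3 or 4 members in each control library, differences of this size could not be told from the spread between libraries.

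The 4 rule genes could be compared between groups over all base cells, which were chosen without them. Nfkbia ranged from 4289 to 10497 CPM (median 8297) in 12 aGVHD libraries and from 3845 to 8486 CPM (median 6173) in 7 control libraries. The groups overlapped, and the log2 difference was 0.24 (SE 0.21, limma adjusted p = 0.731). Nfkbiz, Tnfaip3 and Gadd45b differed by 0.12, 0.01 and 0.06 (limma adjusted p = 0.928, 0.992 and 0.963). With the G1 set alone these 4 differences were -0.12, -0.03, -0.14 and -0.35. Lcn2 stood at medians of 528 CPM in aGVHD and 217 CPM in control, a difference of 1.83 (SE 0.54, limma adjusted p = 0.158). Its direction held in every alternative setting, libraries left out among them, and it passed the test in 1 of these and not in 30. Over these sums limma called 0 of 4601 genes (0.0%), with 499 at an unadjusted p under 0.05, and the other settings called 0 to 39. These values are sums over the cells of a library, so they do not separate the number of cells with high levels from the level per cell.

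A test of whether the contrast between members and other base cells itself differed between the groups called 2 of 3369 genes (0.0594%), with 344 at an unadjusted p under 0.05. Reg3b had a difference of differences of 3.77 (limma adjusted p = 0.0215). Members of control libraries 1, 4, 7 and 8 stood at 596, 543, 0 and 0 CPM, and the other cells there at 9585, 31658, 2629 and 0 CPM, while in aGVHD libraries the medians were 38.2 and 36.5 CPM. The epithelial gene was thus high in the other cells of 3 control libraries. Oas3, an interferon-induced sensor of double-stranded RNA, had a difference of -3.78 (limma adjusted p = 0.0265). Its control members held 4, 1, 1 and 1 transcripts and the other cells 0, 6, 1 and 0, and the aGVHD medians were 0 and 153 CPM. Both genes rest on few transcripts in members. In simulated sums with known changes this test found few of them, so its count says little of how many genes differ. At equal depth 0 of 1326 genes were called, with 99 at an unadjusted p under 0.05. The call of Reg3b was lost without control library 4 or 7 or aGVHD library 9, and that of Oas3 without control library 1 or 7 or aGVHD library 3 or 9. The count of 2 ran from 0 without aGVHD library 9 or control library 7 to 42 without control library 8. For Tnf the difference between groups was -0.21 (SE 0.62, limma adjusted p = 0.924), for Cxcl2 -0.52 (SE 0.34, adjusted p = 0.604) and for Il1b -0.49 (SE 0.33, adjusted p = 0.608), and all 3 were higher in members in 4 of 4 control and 9 of 9 aGVHD libraries.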

How the data were processed

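The authors sequenced CEL-Seq2 libraries of sorted neutrophils from 10 control and 12 aGVHD samples and deposited, per library, a table of genes by 192 barcodes. The submitters' processing notes name BWA 0.6.2-r126 and bcl2fastq 2.17.1.14, and of the build nothing is said there or in the labels. What was deposited, per barcode and gene, is an estimated count of transcripts with no scaling for depth: each of the 1419098 values above 0 is what a whole number of identifiers drawn from a pool of 4096 gives, with 0 failing at a tolerance of 1e-06. The column check could not read them as counts, so their unit was entered as other and no count model was run. Values were rounded, and groups were taken from the sample descriptions.

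Sums per library were tested with limma 3.58.1 (R 4.3.3) on log2 CPM, offset 0.5, voom weights, named-gene totals, genes with at least 30 transcripts and detected in at least 50% of the libraries of the fit, and Benjamini-Hochberg adjustment at 0.05. Members were compared within libraries (library as a block) and groups with the title set as a covariate. Thinning of both sums to the shallower one was added after the data were seen. The planned test of each rule gene in cells chosen by the other 3 is given as a description. Shares were compared by exact permutation (SciPy 1.17.1). On simulated sums with known changes the fixed-offset fit made many false calls, the equal-depth fit made few, and the test of the contrast between groups missed most changes. Genes were named by smallest p per direction and list, plus Lcn2 and the tested NF-kB subunits and regulators; of these the text gives a selection made after their values were seen, and Irg1 and Ccrl2 come from the smallest p. The members and lists were chosen with earlier results of these data known. Alternatives covered the cut, depth, filters, scaling, weights, title sets, marker-rich cells and each library left out.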

Additional observations from a re-analysis of the deposited data

Results flagged for a closer look

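Over the 13 libraries, the difference between members and other base cells within a library was set against the spread of its group for each gene named, and in 15 cases 1 library stood apart from the rest of its group by a test that chance meets in about 1 of 20 groups. Among genes that rose, Cd274 differed by 2966 CPM in control library 1, Clec4e by 4227 CPM in aGVHD library 2, Dusp2 by 2759 CPM in aGVHD library 10, Maff by 1084 CPM in control library 8 and Socs3 by 1998 CPM in control library 8. Zfp36 differed by -1767 CPM in aGVHD library 5, against the direction of the other libraries. Nfkbib, which did not pass the test at equal depth, differed by 894 CPM in control library 4 and by 771.9 CPM in aGVHD library 1.

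Among genes that fell, aGVHD library 1 stood apart for Krt8 (-437.8 CPM), Reg3b (-1512 CPM), Reg3g (-1154 CPM) and mt-Co3 (-6273 CPM). H2-Ab1 and H2-Eb1 stood apart in aGVHD library 12, at -2899 and -3126 CPM, and Ly6c2 in control library 4, at -1319 CPM.

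For 2 genes the contrast of members with other cells differed between control and aGVHD, by the test of that difference itself: Reg3b by 3.77 and Oas3 by -3.78 on the log2 scale. Neither was called at equal depth.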

How the results depend on the processing

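The difference in share between groups, 2.03 points, was -2.29 with the top 20% of base cells and -0.739 with cells thinned to 300 transcripts. It was -1.39 in the G1 set, and -0.499 to 4.26 with 1 library left out. None of these passed the test, and the G1 set, with 15 permutations, could not have passed it. The count of 609 called at the fixed offset became 120 with the top 10%, 30 with thinned cells, 187 without cells of very high total or high Kcnq1ot1, 255 with trimmed-mean scaling, 13571 with no low-count filter, 183 with a filter of 100 transcripts, 45 in the dated set, 116 in the G1 set, 405 with an offset in proportion to depth, 106 at equal depth, 99 with at least 5 cells of each status, 134 in aGVHD libraries alone, 9 in control libraries alone, 44 without marker-rich cells and 274 to 533 with 1 library left out. Of the 405, 8.15% were higher. The count of 106 at equal depth became 12 with no filter, 40 in the dated set, 67 in the G1 set, 59 with the top 10%, 15 with thinned cells, 52 without cells of very high total or high Kcnq1ot1, 26 without marker-rich cells, 64 with at least 5 cells of each status, 12 in control libraries alone and 82 to 114 with 1 library left out. Settings that leave out cells or libraries rest on fewer of them by construction; beyond that the cause was not tested.

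For the difference of the contrast between groups, 2 calls became 8 with trimmed-mean scaling, 30 with no filter, 11 with a filter of 100 transcripts, 1 with a trend in place of weights, 55 in the dated set, 0 in the G1 set, 1 with an offset in proportion to depth, 0 at equal depth and 0 to 42 with 1 library left out. For members by group, 0 calls became 1 with no filter, 3 with a trend, 3 with a proportional offset and 1 with at least 2 members, and stayed at 0 with each library left out. For all base cells by group, 0 calls became 39 with no filter, 4 with a trend, 1 with a proportional offset and 0 to 9 with 1 library left out (9 without control library 2). Each left-out rule gene kept its direction, with Nfkbia at 1.08 in the dated set; with 1 library left out the differences ran from 1.37 to 1.56 for Nfkbia, 1.39 to 1.63 for Nfkbiz, 1.55 to 1.74 for Tnfaip3 and 1.54 to 1.74 for Gadd45b.

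Directions that turned, at the fixed offset: with the top 20%, Lcn2 0.085; with thinned cells, Hsp90ab1 0.48, H2-Ab1 0.20, Ly6c2 0.065 and Reg3b 0.15; without high-total cells, Reg3b 0.33; Nfkb1 -0.43 with trimmed-mean scaling, -0.86 with a proportional offset, -0.13 with at least 5 cells and -0.24 without marker-rich cells; Rela 0.32 in the G1 set; Pigr 0.12 without marker-rich cells. With 1 library left out Rela ran from -0.25 to 0.086 and Lcn2 from -0.50 to 0.11. At equal depth, Birc3 was -0.0040 with thinned cells and Lyz1 0.30 in control libraries alone. Over all base cells by group, Tnfaip3 was -0.021 with no filter, -0.038 at equal depth and -0.24 without high-total cells, where Nfkbiz was -0.093 and Gadd45b -0.16; the G1 set gave Nfkbia -0.12, Nfkbiz -0.035, Tnfaip3 -0.14 and Gadd45b -0.35. With 1 library left out Nfkbiz ran from -0.028 to 0.23, Tnfaip3 from -0.20 to 0.13 and Gadd45b from -0.0061 to 0.17. None of these differences by group passed the test.

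Libraries of both groups share numbers in their titles. The deviations of same-numbered libraries correlated at -0.52 to 0.38 over 5 pairs, and 1 pair correlated best with its own number. A pairing by number was therefore not seen, but 5 pairs are too few to exclude one. With the number as a replicate block, the share differed by 2.62 points (exact permutation p = 0.6875). That test had 32 permutations and could not give a p under 0.05. With the same block 6 genes were called over all base cells, against 0 in the same libraries without pairing. For members by group the block was not run, because too few pairs had 3 members in both libraries. Control libraries, with 3 or 4 members each, limit every comparison of members between groups.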

Other observations

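Genes outside the rule for naming, chosen here after their values were seen, also rose in members in both fits; the values are log2 differences at equal depth with limma's adjusted p. Bhlhe40, a transcription factor of inflammatory myeloid cells, differed by 1.72 (adjusted p = 0.000147). Hcar2, a receptor for niacin and ketone bodies, differed by 1.35 (adjusted p = 0.000277), and Ptafr, the receptor for platelet-activating factor, by 1.21 (adjusted p = 0.00393). Csf1, the growth factor of macrophages, differed by 1.19 (adjusted p = 0.0022), and Il1f9, an IL-36 cytokine, by 1.29 (adjusted p = 0.00393). Mapkapk2, the kinase below p38 that acts on tristetraprolin, differed by 1.36 (adjusted p = 0.00247).

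Nlrp3, the inflammasome sensor that NF-kB is known to prime, differed by 0.97 (adjusted p = 0.0341). Nfe2l2, which encodes the antioxidant regulator NRF2, differed by 0.99 (adjusted p = 0.0275), and Fth1, the heavy chain of ferritin, by 0.73 (adjusted p = 0.0111). Hdc, which makes histamine, differed by 0.81 (adjusted p = 0.0341).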
